A study of Homo sapiens with 6 samples.

Results

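RNA of 10 genes of cellular iron metabolism was compared between 5637 cells depleted of YKT6 and their controls. The genes were TFRC, SLC11A2 and STEAP3, which act in iron uptake, FTH1, FTL and NCOA4, which act in iron storage and its release, the exporter gene SLC40A1, and IREB2, ACO1 and FBXL5, which belong to the control of iron uptake, storage and export after transcription. They were chosen by name, with earlier results of these data known, and each had a row among the 36887 genes of the count table. The 5637 line is an established human bladder carcinoma line. The siYKT6 group (n = 3) received siRNA against YKT6, the gene of a vesicle fusion protein of the SNARE family, and the siNC group (n = 3) received negative control siRNA. All 6 samples are labelled wild type, carry the same batch label and were collected 48 h after transfection. The study's other assays use the names siYKT6-1 to siYKT6-3 for separate siRNAs, and the labels do not say whether these libraries differ in the same way. Nothing in the labels or methods states that the samples were grown separately. The p-values then cover only the variation among these 6 libraries, which may be technical.

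Cells take up iron mainly as transferrin, which binds the transferrin receptor at the surface and is carried into endosomes. There the iron is reduced and pumped into the cytosol, where it is used, stored in the shell of heavy and light ferritin chains, or exported by ferroportin. Iron regulatory proteins bind hairpins called iron-responsive elements when iron is scarce. Bound to the 3′ UTR of the receptor mRNA they protect it from decay, and bound to the 5′ UTR of ferritin or ferroportin mRNA they block translation, so that the protein can change without its mRNA.

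The hairpins are shown because they divide the 10 genes by how the regulatory proteins are known to act on them. A window of 29 bases was searched for in the UTRs of GENCODE 44 coding transcripts, on the sense strand. It holds an unpaired C, 5 bases of upper stem, the loop CAGTGN and the 5 bases that pair back. The lower stem has 5 bases before the C and 5 bases after the upper stem on the other side. The outermost base at each end of the window is shown but was not scored. All 5 upper pairs and at least 4 of the 5 lower pairs were required, G with T allowed. Of 19676 coding genes, 21 (0.107%) held such a window, and 4 of these were TFRC, FTH1, FTL and SLC40A1. Capitals mark the unpaired C and the loop, and the mRNA has U in place of T.
TFRC 3′ UTR, first window: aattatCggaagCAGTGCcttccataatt
TFRC 3′ UTR, second window: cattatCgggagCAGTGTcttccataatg
TFRC 3′ UTR, next window: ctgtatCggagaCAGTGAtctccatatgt
TFRC 3′ UTR, last window: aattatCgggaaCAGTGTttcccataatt
FTH1 5′ UTR: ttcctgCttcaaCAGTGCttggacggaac
FTL 5′ UTR: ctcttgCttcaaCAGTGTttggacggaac
SLC40A1 5′ UTR: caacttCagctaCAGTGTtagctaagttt
SLC11A2 3′ UTR: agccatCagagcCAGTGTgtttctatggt

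In GRCh38 the TFRC windows lie on the minus strand at chr3:196050979-196051007, chr3:196050575-196050603, chr3:196050510-196050538 and chr3:196050463-196050491, in 10 of 11 coding transcripts. The FTH1 window lies at chr11:61967574-61967602 (minus strand, 7 of 8 coding transcripts) and the FTL window at chr19:48965335-48965363 (plus strand, in its 1 coding transcript). The SLC40A1 window lies at chr2:189580661-189580689 (minus strand), in 1 of 5 coding transcripts. The SLC11A2 window, at chr12:50988269-50988297 (minus strand), lies in the 3′ UTR of 4 of 17 coding transcripts. It missed the rule, with 4 upper pairs and 1 lower pair. The rule allows no extra unpaired base in the stems, so hairpins with such a base can be missed. The miss therefore does not show that SLC11A2 lacks an iron-responsive element. Windows with at least 4 upper pairs, whatever their lower stem, were found in 1254 genes (6.37%), IREB2 and ACO1 among them. By its letters alone, such a window marks little. A match describes the letters and does not show binding.

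The knockdown was seen in every library. YKT6 (chromosome 7 of GRCh38, 44200968 to 44214294) had 17.7, 19.4 and 17.3 CPM (counts scaled to a common library size after TMM adjustment) in siYKT6 cells, against 64.5, 65.3 and 68.2 CPM in siNC cells. Its log2 fold change was -1.86 (SE 0.0477, adjusted p = 5.3e-17). This and every other adjusted p comes from the quasi-likelihood test of edgeR with Benjamini-Hochberg adjustment over all tested genes. Libraries held 57546297 to 64429709 counts in siYKT6 and 45205238 to 64982015 in siNC cells. Mitochondrial genes took 8.44 to 8.73% of counts in siYKT6 and 7.91 to 8.24% in siNC cells. Summed leukocyte markers lay at 0.707 to 0.987 CPM in siYKT6 and 0.648 to 1.06 CPM in siNC cells. Endothelial markers summed to 1.558 to 1.596 CPM in siYKT6 and 0.861 to 1.39 CPM in siNC cells (1 of 3 tested genes higher, VWF, log2 fold change 1.01), and fibroblast markers to 34.0 to 36.3 CPM in siYKT6 and 30.3 to 31.2 CPM in siNC cells (1 of 6 tested genes higher, COL1A1, log2 fold change 0.26). Erythroid markers summed to 0.260 to 0.461 CPM in siYKT6 and 0.340 to 0.805 CPM in siNC cells. Of the epithelial markers, 6 of 9 were lower and 1 higher, with summed levels of 3136 to 3341 CPM in siYKT6 and 5199 to 5320 CPM in siNC cells. The falls were led by the basal keratin genes KRT17 (log2 fold change -1.47) and KRT5 (-1.14) and the basal transcription factor gene TP63 (-0.95). Beside these marker counts, 16.3% of all tested genes were called lower and 14.6% higher at an adjusted p under 0.05. The part of these marker differences in the results below was not tested.

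Of the 10 genes, 2 fell (TFRC and SLC11A2), 2 rose (FTH1 and IREB2) and the other 6 missed the threshold of an adjusted p under 0.05. All 10 passed the filter on low counts. Over all 21036 tested genes 30.8% were called, 14.6% higher and 16.3% lower, so 4 of 10 is near the background and says nothing about the group as a whole. The CPM of the groups did not overlap in 5 of the 10 genes, 2 of them higher and 3 lower, against 41.8% of all tested genes (20.3% higher and 21.5% lower). The median log2 fold change was 0.03 for the 10 genes and 0.00 for all tested genes. The calls differed in size. TFRC and SLC11A2 lay at 63.0% and 65.5% of the siNC level, with 3.75% and 4.52% of tested genes at a lower log2 fold change. FTH1 and IREB2 lay at 115.0% and 110.0%, with 79.9% and 72.1% of tested genes at a lower log2 fold change, so many genes rose more.

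**Figure D1:**
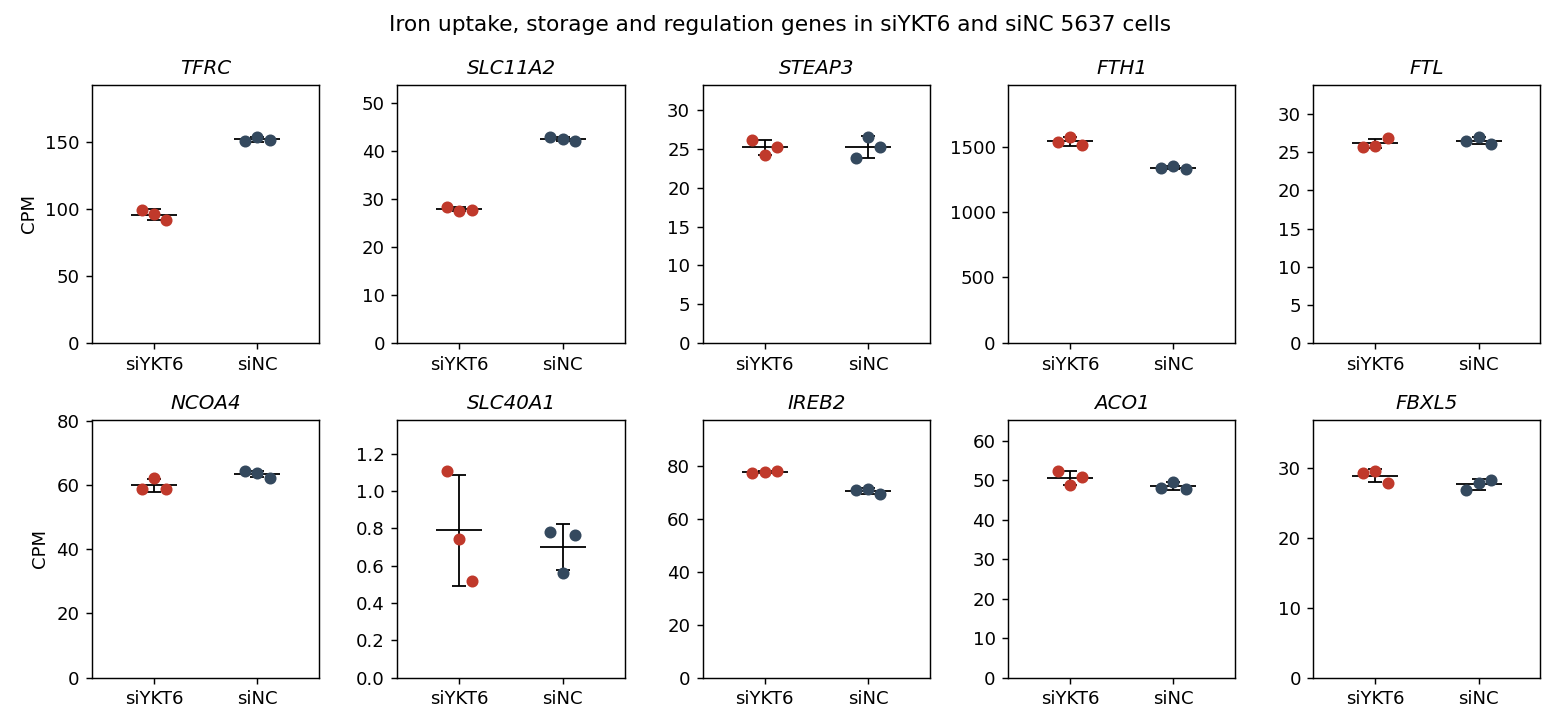
CPM of each of the 10 genes (vertical axes start at 0) in the 3 siYKT6 samples (red, left) and the 3 siNC samples (dark, right), with mean and SD as bars. TFRC and SLC11A2 sit lower in all siYKT6 samples and FTH1 and IREB2 higher, while the samples of the other genes overlap except for NCOA4.

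TFRC, the gene of the transferrin receptor, was the most clearly lowered. It lies on chromosome 3 (196027183 to 196082189, minus strand). Its level was 99.4, 96.5 and 91.6 CPM in siYKT6 cells, against 150.8, 154.2 and 151.3 CPM in siNC cells. Every siYKT6 sample lay far below every siNC sample, and the gap was several times the spread within either group. This is a log2 fold change of -0.67 (SE 0.0363, 95% interval -0.74 to -0.59, adjusted p = 8.2e-12). In bulk RNA, fewer cells with the transcript and less of it per cell cannot be told apart.

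SLC11A2, the gene of the divalent metal transporter that moves iron out of endosomes, fell by nearly as much. It lies on chromosome 12 (50979401 to 51028566, minus strand). It had 28.3, 27.5 and 27.6 CPM in siYKT6 cells, against 42.9, 42.4 and 41.9 CPM in siNC cells. The samples of each group lay within 1 CPM of one another, and the groups were well apart. Its log2 fold change was -0.61 (SE 0.0418, 95% interval -0.70 to -0.52, adjusted p = 3.1e-10). The counts cover all transcripts of the gene, so forms with and without the 3′ UTR window could not be separated.

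STEAP3, the gene of the endosomal ferrireductase that works between the receptor and the transporter, had no called difference. Its samples ranged over 24.2 to 26.2 CPM in siYKT6 cells and 23.9 to 26.6 CPM in siNC cells, so the ranges overlapped throughout. The log2 fold change was 0.00 (95% interval -0.11 to 0.10, adjusted p = 0.971), an interval that leaves out falls of the size seen for TFRC and SLC11A2. An antisense gene, STEAP3-AS1, shares 500 bases (10.96%) of its exons.

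**Figure D2:**
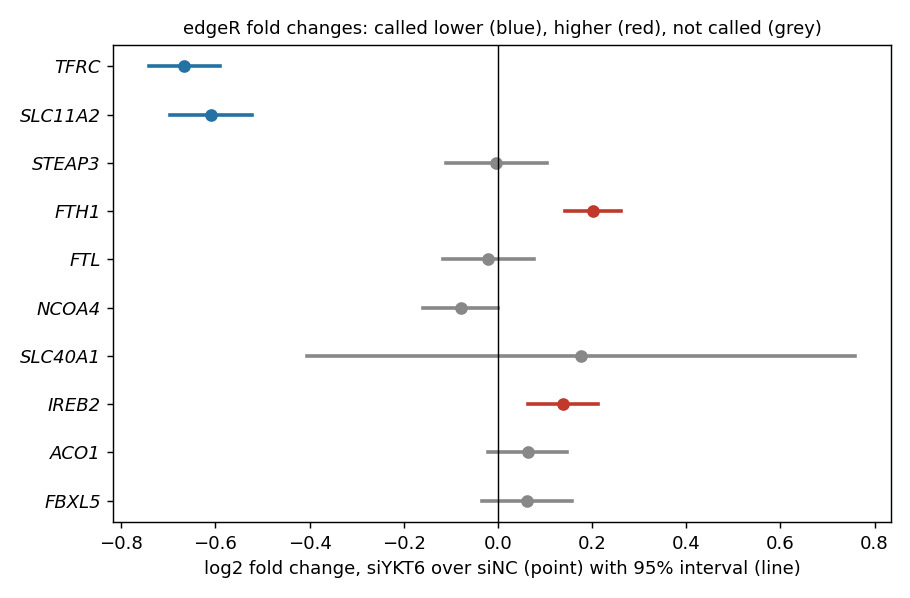
Log2 fold change of siYKT6 over siNC for the 10 genes (points) with 95% intervals (lines) from edgeR, called lower in blue, called higher in red and not called in grey. TFRC at -0.67 and SLC11A2 at -0.61 stand apart from the other 8, and the interval of SLC40A1 is the widest.

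FTH1, the gene of the ferritin heavy chain, rose slightly. It lies on chromosome 11 (61959718 to 61967660, minus strand). Its level was 1533, 1576 and 1508 CPM in siYKT6 cells, against 1337, 1348 and 1328 CPM in siNC cells. The groups did not overlap, but the difference was only 15.05% of the control level (log2 fold change 0.20, SE 0.0284, 95% interval 0.14 to 0.26, adjusted p = 9.6e-06). This value has a limit in how the gene was counted. BEST1, a chloride channel gene on the opposite strand, shares 1267 bases with FTH1, 62.4% of the FTH1 exons. BEST1 had 81.0 to 81.5% of the FTH1 count in siYKT6 and 80.4 to 82.4% in siNC cells, and a log2 fold change of 0.20 (adjusted p = 1.2e-05). The library kit keeps the strand, but no source used here gives the strand setting of the counting, so reads of the pair cannot be told apart.

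FTL, the gene of the light chain, did not move with FTH1. It had 25.7 to 26.9 CPM in siYKT6 cells and 26.1 to 27.1 CPM in siNC cells, with overlapping samples. Its log2 fold change was -0.02 (SE 0.0461, 95% interval -0.12 to 0.08, adjusted p = 0.793). FTL counts were 1.64 to 1.78% of the FTH1 counts in siYKT6 and 1.97 to 2.01% in siNC cells. Both ferritin genes have processed copies elsewhere in the genome. Of the 31-base windows along the main transcript, 60.9% for FTH1 and 52.2% for FTL were found again in GRCh38 outside the gene, and no source used here says how reads that match several places were counted. The 20 FTH1 pseudogenes with a row held 0.757 to 0.896% of the FTH1 count and the 8 FTL pseudogenes 0.665 to 1.55% of the FTL count. The level of each ferritin gene, and the ratio of the pair, is therefore uncertain.

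NCOA4, the gene of the receptor that delivers ferritin to lysosomes so that its iron is released, had no called difference. It had 58.8, 62.3 and 58.7 CPM in siYKT6 cells, against 64.3, 63.6 and 62.3 CPM in siNC cells. The groups did not overlap, but the highest siYKT6 sample and the lowest siNC sample nearly met. The log2 fold change of -0.08 (95% interval -0.16 to 0.00) did not pass the test (adjusted p = 0.133). Of its 31-base windows 23.5% recur in the genome.

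SLC40A1, the gene of ferroportin, the only known iron exporter of mammalian cells, was barely expressed. It had 72, 47 and 30 counts in siYKT6 libraries and 35, 28 and 49 counts in siNC libraries, or 1.11, 0.743 and 0.519 CPM against 0.783, 0.560 and 0.763 CPM. The samples were intermingled. The log2 fold change of 0.18 had a 95% interval of -0.41 to 0.76 (adjusted p = 0.695), and it was -0.15 without siYKT6 replicate 1, so neither direction nor absence of change can be read at this depth.

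IREB2, the gene of iron regulatory protein 2, was slightly higher. It lies on chromosome 15 (78437431 to 78501456, plus strand). Its level was 77.3, 77.8 and 78.1 CPM in siYKT6 cells, against 71.2, 71.5 and 69.4 CPM in siNC cells. All siYKT6 samples lay above all siNC samples, by more than the spread within either group. Its log2 fold change was 0.14 (SE 0.0356, 95% interval 0.06 to 0.21, adjusted p = 0.0051). Iron regulatory protein 2 is controlled mainly by protein decay, so its mRNA is only one part of its supply.

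ACO1, the gene of iron regulatory protein 1, which is a cytosolic aconitase when it carries an iron-sulfur cluster, spanned 48.8 to 52.3 CPM in siYKT6 cells and 47.7 to 49.6 CPM in siNC cells. Its log2 fold change of 0.06 (95% interval -0.02 to 0.15) did not pass the test (adjusted p = 0.271). FBXL5, the gene of the iron-sensing ubiquitin ligase subunit that marks iron regulatory protein 2 for decay, spanned 27.8 to 29.5 CPM in siYKT6 cells and 26.8 to 28.2 CPM in siNC cells. It too had a log2 fold change of 0.06 (95% interval -0.03 to 0.16, adjusted p = 0.353). Both genes thus overlapped between the groups, and their intervals leave room for small changes of the size of that in IREB2.

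Levels of different genes were compared as TPM, which divide each count by the exon length given in the table before scaling to a common total. FTH1 stood far above the rest, with 1979 ± 61.5 TPM in siYKT6 cells and 1709 ± 23.4 TPM in siNC cells (SD, n = 3 each). FTL followed with 77.8 ± 0.955 TPM in siYKT6 cells and 78.4 ± 1.91 TPM in siNC cells. TFRC and NCOA4 came next. TFRC was at 31.7 ± 1.67 TPM, below NCOA4 at 38.4 ± 1.48 TPM, in siYKT6 cells, and at 50.01 ± 0.984 TPM, above NCOA4 at 40.3 ± 0.574 TPM, in siNC cells. The order of this pair depends on the length used. With the length of the canonical GENCODE transcript (5012 bases for TFRC and 3461 for NCOA4, against 7887 and 4079 in the table), a choice made after seeing the data, TFRC lay above NCOA4 in both groups, with a ratio of 1.10 in siYKT6 and 1.66 in siNC cells. The repeated windows of NCOA4 add to this uncertainty. IREB2, ACO1, FBXL5 and STEAP3 followed, between 14.4 and 18.8 TPM on average in siYKT6 cells and 14.4 and 16.96 TPM in siNC cells. Among these, the siNC samples of IREB2 overlapped those of ACO1, and those of FBXL5 overlapped those of STEAP3. SLC11A2 had 7.39 ± 0.190 TPM in siYKT6 cells and 11.2 ± 0.101 TPM in siNC cells, and SLC40A1 had 0.477 ± 0.184 TPM in siYKT6 cells and 0.420 ± 0.0709 TPM in siNC cells. The table's length joins all exons of a gene, so a gene with many unused exons appears lower than it is. With canonical transcript lengths FTH1 was still the highest and SLC40A1 the lowest in both groups, TFRC in siNC cells came to 78.7 on that scale, close to FTL at 79.0, and SLC11A2, ACO1, STEAP3 and, in siYKT6 cells, FBXL5 took other places in the order.

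**Figure D3:**
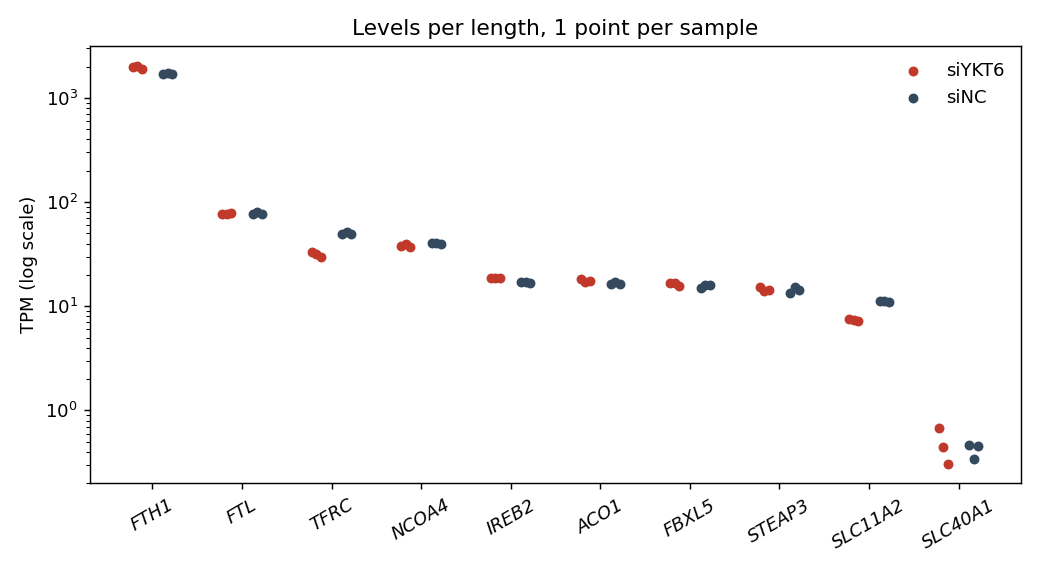
TPM of the 10 genes on a log axis, 1 point per sample, siYKT6 in red and siNC in dark, ordered by the siNC mean. FTH1 lies highest and SLC40A1 lowest in both groups, and the order of the genes between them depends in part on the exon length used.

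Ratios within a library do not depend on how libraries are scaled. Receptor to heavy chain, as TFRC counts per FTH1 count, was 0.0648, 0.0612 and 0.0608 in siYKT6 libraries, against 0.113, 0.114 and 0.114 in siNC libraries. The siYKT6 ratio was 54.8% of the siNC ratio (log2 difference -0.87), and the groups did not overlap. It combines the TFRC and FTH1 differences given above and is not a further result. The limits of the FTH1 count, its overlap with BEST1 and its copies elsewhere, apply to this ratio too. The heavy to light chain ratio, as FTH1 counts per FTL count, was 59.6, 60.9 and 56.1 in siYKT6 libraries and 50.5, 49.8 and 50.9 in siNC libraries (log2 difference 0.22). For both ratios the exact two-sided permutation test gave p = 0.1, the smallest that 3 samples against 3 allow. IREB2 per ACO1, per length, was 1.07 ± 0.0401 in siYKT6 and 1.02 ± 0.0136 in siNC libraries (SD, n = 3 each), with overlapping samples (exact two-sided permutation p = 0.2). With canonical transcript lengths this ratio was 1.81 in siYKT6 and 1.72 in siNC libraries, so the level of IREB2 relative to ACO1 depends on the length, while the comparison of the groups does not. With Benjamini-Hochberg adjustment over the 3 ratios these exact p-values became 0.15, 0.15 and 0.2.

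**Figure D4:**
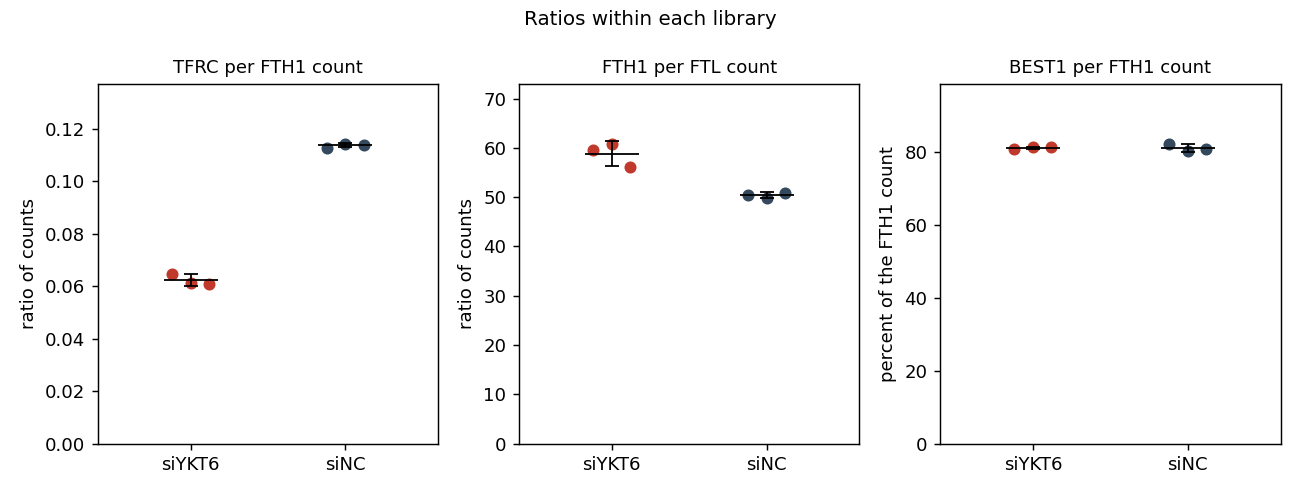
Ratios within each library, with mean and SD over 3 samples: TFRC per FTH1 count, FTH1 per FTL count, and the BEST1 count as a percentage of the FTH1 count. The first ratio is 54.8% of its siNC value in siYKT6 libraries, the second is higher in siYKT6 libraries, and the BEST1 percentage lies between 80.4 and 82.4 in all 6.

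The genes whose pattern was most like that of TFRC were the cystine transporter gene SLC7A11 (Pearson's r = 1.00 of log2 CPM over the 6 samples, log2 fold change -0.98), the kinesin gene KIF13A (r = 1.00, -0.45) and SLC7A11-AS1 (r = 0.999, -0.98). These were taken from 11614 genes of at least 5 CPM, of which 283 had an r over 0.99. With 2 groups of 3 samples the r follows the difference between the groups, so it is only a description. SLC7A11-AS1 shares 865 bases with SLC7A11 on the opposite strand (14.0% of its own exons), and reads of that stretch cannot be told apart without the strand setting.

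A wider list of 98 iron genes was examined beside the 10, of which 95 had a row and 91 were tested. Of these, 23 fell (25.3%, background 16.3%), 12 rose (13.2%, background 14.6%) and 56 were not called. The median log2 fold change of the list was -0.04. Without siYKT6 replicate 3 only 7 genes were called higher. This list and the lists below were also chosen with earlier results of these data known, so their shares are only a description.

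Among 12 further uptake genes that were tested, 7 fell and 0 rose (background 16.3% lower and 14.6% higher, as for each list here). DESeq2 and limma-voom each called 7 lower and 0 higher, and at an unadjusted p under 0.05 edgeR gave 8 lower and 0 higher. STEAP1 and STEAP2, which encode proteins of the family of STEAP3, fell by 0.63 and 0.57 on the log2 scale. STEAP1 had 20.2, 20.1 and 20.8 CPM in siYKT6 cells, against 31.97, 31.2 and 31.4 CPM in siNC cells. CYBRD1, the gene of a ferric reductase that acts at the cell surface, fell by 0.54 and SLC39A8, the gene of a zinc and iron importer, by 0.30. STEAP1, STEAP2 and CYBRD1 lay at 64.6%, 67.5% and 68.7% of the siNC level.

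Of 6 tested genes of export and of its hormonal control, HEPHL1 and PRNP fell and CP rose. HEPHL1, the gene of a copper ferroxidase related to hephaestin, had the largest fall of the list, with 72.3, 70.2 and 67.5 CPM in siYKT6 cells, against 161, 155 and 159 CPM in siNC cells (log2 fold change -1.18, SE 0.0367, adjusted p = 1.4e-15). PRNP, the gene of the prion protein, to which a ferrireductase activity has been ascribed, fell by 0.63. CP, the gene of the plasma ferroxidase ceruloplasmin, had a log2 fold change of 0.34, at 6.94 ± 0.782 CPM in siYKT6 cells and 5.47 ± 0.372 CPM in siNC cells (SD, n = 3 each), and 19.4% of its exons overlap those of HPS3 on the opposite strand.

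Of 6 tested chaperone genes, PCBP1 and PCBP4 rose, each with a log2 fold change of 0.21, and 0 fell in edgeR's test. DESeq2, limma-voom and edgeR at an unadjusted p under 0.05 each gave 3 higher and 0 lower. PCBP1 encodes a protein that hands iron to ferritin. Its antisense neighbour PCBP1-AS1 shares 52.2% of its exons and had a log2 fold change of 0.18. Of 7 genes that act with FBXL5 or in ferritin turnover, among them those of the ubiquitin ligase scaffold CUL1 and the autophagy receptor TAX1BP1, 0 passed edgeR's test in either direction, 0 were called by DESeq2 or limma-voom, and 1 was higher at an unadjusted p under 0.05. Of 4 other tested genes whose mRNAs carry known iron-responsive elements, EPAS1, which encodes a hypoxia-inducible factor subunit, fell by 0.43 and the other 3 did not pass the test.

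**Figure D5:**
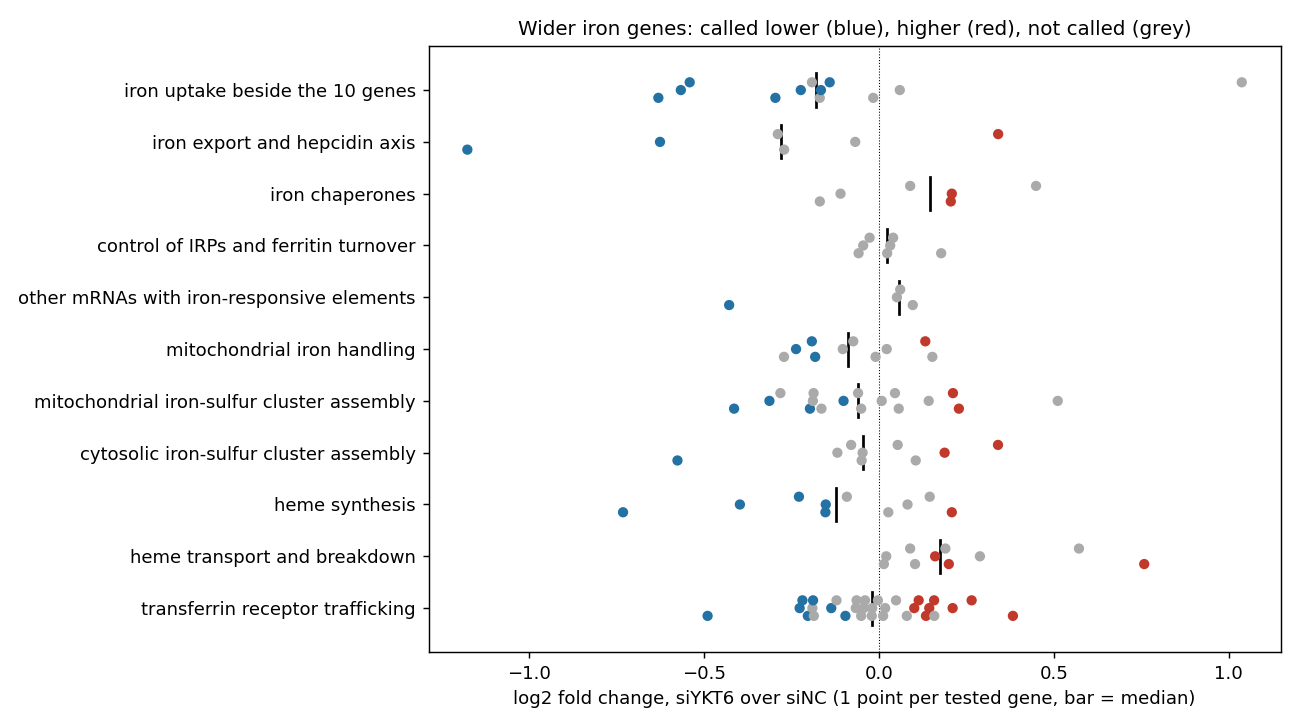
Log2 fold change of siYKT6 over siNC for each tested gene of 11 lists of iron metabolism and of transferrin receptor trafficking (1 point per gene, bar at the median), called lower in blue, higher in red and not called in grey. The uptake list holds 7 falls and 0 rises, and the heme transport and breakdown list 3 rises and 0 falls.

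Mitochondria use iron for clusters and heme. Of 10 tested genes of mitochondrial iron handling, 3 fell and 1 rose, while DESeq2 called 1 lower and 0 higher. The importer genes SLC25A37 and SLC25A28 (mitoferrins) fell by 0.18 and 0.24 (adjusted p = 0.0027 and 0.036 in edgeR). DESeq2, with 1 gene of the list called lower, did not call both. Among 17 genes of mitochondrial iron-sulfur cluster assembly, 4 fell and 2 rose. NFS1, the gene of the cysteine desulfurase that supplies sulfur, fell by 0.41 and ISCU, the gene of the scaffold, by 0.20, while IBA57, the gene of a late assembly factor, had a log2 fold change of 0.21. Of 9 genes of cytosolic assembly, NUBP1, the gene of a scaffold subunit, fell by 0.58 (36.1% of its exons are shared with TVP23A on the opposite strand), and NDOR1 and CIAPIN1, which encode its electron donors, had log2 fold changes of 0.34 and 0.19.

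In heme synthesis, 5 of 10 tested genes fell and 1 rose, where the background is 16.3% lower and 14.6% higher. CLPX, the gene of an unfoldase that activates the first enzyme of the pathway, had 41.6, 42.3 and 42.7 CPM in siYKT6 cells, against 68.7, 70.1 and 71.3 CPM in siNC cells (log2 fold change -0.73, SE 0.0381, adjusted p = 4.0e-12). UROS and CPOX, which encode enzymes of later steps, fell by 0.23 and 0.15. CPOX shares 8.48% of its exons with CLDND1 on the same strand, and CLDND1 fell by 0.27. Of 10 tested genes of heme transport and breakdown, 3 rose and 0 fell, with the same counts from DESeq2 and limma-voom and 6 higher and 0 lower at an unadjusted p under 0.05 in edgeR. HMOX1, the gene of the inducible heme oxygenase, which frees iron from heme, had 2.73, 2.56 and 2.60 CPM in siYKT6 cells, against 1.52, 1.26 and 1.84 CPM in siNC cells (log2 fold change 0.76, SE 0.153, adjusted p = 5.6e-04). All its levels were low. SLC46A1, the gene of a folate and heme importer, had a log2 fold change of 0.20, but shares 56.4% of its exons with SARM1 on the opposite strand, which had 0.22.

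The receptor itself cycles through endosomes, and of 31 tested genes of that route 8 were called higher (25.8%, background 14.6%), 7 lower (22.6%, background 16.3%) and 16 neither. Among the rises were EHD1, which encodes a protein of recycling endosomes (log2 fold change 0.38), the early endosome GTPase gene RAB5B (0.26), the sorting nexin gene SNX3 (0.21) and the clathrin heavy chain gene CLTC (0.13). RAB12, the gene of a GTPase that directs the receptor to lysosomes, fell by 0.49, and SNX4, MYO5B and RAB4A, which encode factors of recycling, fell by 0.22, 0.20 and 0.23.

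A 7-base word in 3′ UTRs, CTCTACA on the sense strand, was also looked up, because it had been picked for going with lower values in these samples. It is in 1692 of 13244 tested genes with a 3′ UTR (12.8%), whose median log2 fold change was -0.07, against 0.00 for the genes without it. Of the 1692 genes with the word 593 were called lower and 238 higher, against 2198 lower and 2152 higher of the 11552 without it. Since the word was picked that way, neither these values nor the counts in the lists below are a test. Among the 10 genes it is in SLC11A2, IREB2 and ACO1, which had log2 fold changes of -0.61, 0.14 and 0.06, and not in TFRC. Of the tested genes of the wider iron and trafficking lists 17 hold it, of which 8 were called lower and 9 were not called, against 22 lower, 20 higher and 63 neither among the 105 without it. CYBRD1 (log2 fold change -0.54) and CLPX (-0.73) are among those that were lower, and SKP1 (0.03) and CAND1 (0.04), which act with ubiquitin ligases, among those not called. The part of the word in their values was not tested.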

How the data were processed

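RNA was measured in 3 siYKT6 and 3 siNC samples of 5637 cells, 1 library each. Libraries came from a stranded mRNA kit. Reads were cleaned with fastp 0.23.0, mapped to GRCh38 and summed over the exons of each gene with featureCounts (Subread 1.5.1) by the authors. The deposited values are these raw counts, with the exon length of each gene (another deposited column, in bases). No source used here gives the aligner, the strand setting or the treatment of reads with several places. Among counts of 1 to 20, 68.8 to 70.0% were even. The reason was not tested, so it is not known whether each count is 1 separate read.

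Counts were filtered with filterByExpr (21036 genes kept, 15851 left out), scaled by TMM and tested with edgeR 4.0.16 (quasi-likelihood, R 4.3.3), with Benjamini-Hochberg adjustment over all tested genes at 0.05. The test was tried on simulated data. CPM use TMM-adjusted totals and TPM the deposited lengths. UTRs came from GENCODE 44 and sequences from GRCh38. Overlaps used the coordinates of the deposited table. The members and lists were chosen with earlier results of these data known. Genes named are YKT6, all 10 members, up to 4 called genes per list and direction with the smallest p, the 3 genes most correlated with the member of smallest p, and overlapping genes and ferritin pseudogenes. Some genes that meet this rule are not reported here. Alternatives were DESeq2 1.42.0 and its size factors, limma-voom (limma 3.58.1), upper quartile scaling, no filter, at least 1 CPM in all samples, halved counts, the replicate number as a block, and each library left out in turn.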

Additional observations from a re-analysis of the deposited data

How the results depend on the processing

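All 10 genes kept their call, and TFRC, SLC11A2, FTH1 and IREB2 their direction, under each of the 14 alternatives. The log2 fold change ranged from -0.69 to -0.63 for TFRC (largest adjusted p 1.5e-09), from -0.62 to -0.59 for SLC11A2 (2.5e-08), from 0.19 to 0.22 for FTH1 (2.7e-04) and from 0.12 to 0.16 for IREB2 (0.033). SLC40A1 ranged from -0.15 to 0.40 over 13 alternatives and has no value at a minimum of 1 CPM in all samples. The number of wider iron genes called higher was 12, and 7 to 11 when 1 library was left out, with 7 without siYKT6 replicate 3. The number called lower ranged from 18 to 24. The replicate numbers did not pair the samples (correlations of same-numbered deviations 0.00, -0.08 and 0.01 over 10190 genes). With the replicate number as a block, 2958 genes were called higher and 3312 lower, against 3066 and 3419 without it, and TFRC had a log2 fold change of -0.67 (adjusted p = 4.3e-11 from edgeR). Upper quartile scaling called 3475 higher and 3094 lower. DESeq2 called 2767 higher and 3095 lower. With canonical transcript lengths, chosen after the data were seen, TFRC per NCOA4 was 1.10 against 0.827 with the table's lengths in siYKT6 cells, and 1.66 against 1.24 in siNC cells. Depth limits SLC40A1, overlapping or repeated sequence limits FTH1, FTL and NCOA4, and the length used limits the order of levels between genes.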
